A study of Mus musculus with 15 samples.

Results

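The amount of a cytokine that an innate lymphocyte makes depends on how long the cytokine mRNA survives, and 7 genes that set this lifetime were read in LP ILC2s (group 2 innate lymphoid cells of the intestinal lamina propria) and in BM ILC2p (their committed precursors in bone marrow). Zfp36, Zfp36l1 and Zfp36l2 encode zinc-finger proteins that bind AU-rich elements in the 3′ untranslated region (3′ UTR) of an mRNA and recruit the CCR4-NOT complex, which removes the poly(A) tail. Zc3h12a encodes Regnase-1, an endonuclease that cuts mRNAs at stem-loops. Rc3h1 and Rc3h2 encode Roquin-1 and Roquin-2, which recognise stem-loops and also recruit CCR4-NOT. Elavl1 encodes HuR, which binds AU-rich elements and mostly stabilises the mRNA. The genes were found by symbol, 7 of the 24690 entries of the expression table, and all 7 passed the filter on low counts in each fit. They were chosen by name with their counts and RPKM in these 15 libraries already known, so their genotype differences are not independent evidence of a pattern.

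The mice that were treated, and that gave the ILC2s and the marrow behind the ILC2p, were Tgfbr2 f/f ER-Cre+ on the C57BL/6 background and aged 8 to 12 weeks, and the recombinase, which the label does not tie to one cell type, is active only with tamoxifen. Groups labelled Tgfbr2-/- came from mice given 1 mg tamoxifen per day for 5 days and groups labelled WT from mice given sunflower oil, so tamoxifen and loss of the receptor cannot be told apart. LP ILC2s (CD45+Lin-CD127+Sca-1+CD25+KLRG1+; 4 WT and 3 Tgfbr2-/- libraries) were sorted 1 day after the last dose. BM ILC2p (CD45.2+Lin-CD127+α4β7+CD25+; 4 WT and 4 Tgfbr2-/- libraries) were sorted from irradiated CD45.1 hosts reconstituted 6 weeks earlier with such marrow and an equal part of CD45.1 marrow. Each cell type came in 2 experiments, told apart by the number shared in the library titles, and no ILC2p library shared an experiment with an ILC2 library. No source says which libraries came from separate animals, so p-values measure the spread between these libraries. The ILC2 libraries held 12167066 to 32114265 counts each, and the ILC2p libraries 10957021 to 35961215.

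The label was checked first with the deleted gene. Tgfbr2 stood at 156 to 278 CPM (counts scaled to library size, itself adjusted by the trimmed mean of M-values, TMM, within a cell type) in WT ILC2s and at 102 to 215 CPM in Tgfbr2-/- ILC2s. The WT ILC2p libraries had 0.701, 227, 105 and 185 CPM, against 85.7, 131, 29.2 and 198 CPM for the Tgfbr2-/- ILC2p libraries. The groups overlapped in both cell types, and since the counts cover the whole transcript, floxed exons or not, this is no check of the deletion. Libraries are therefore named by their labels.

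Because 3 of the 7 regulators act on AU-rich elements and HuR binds them too, the sites in the transcripts of the regulators themselves are shown first. The longest annotated 3′ UTR of each gene (GENCODE on NCBIM37, the mm9 build of the files) was searched on the sense strand for the nonamer TTATTTATT, which contains the pentamer ATTTA. It was found in 6 of the 7 regulators, all but Zc3h12a, and in 6.52% of the 19915 genes with a 3′ UTR. Long 3′ UTRs hold it more often. Rc3h1 (7181 bases), Rc3h2 (5331 bases) and Elavl1 (4818 bases) have long 3′ UTRs, and among 3′ UTRs within 25% of those lengths 27.2%, 20.9% and 19.3% hold the nonamer. For Zfp36 (774 bases) the share at like length was 3.93%, for Zfp36l1 (1829 bases) 8.52% and for Zfp36l2 (1822 bases) 8.50%. Elavl1 carried 8 overlapping or neighbouring nonamers and the other 5 carried 1 each. The sites follow 5′ to 3′ with the nonamer in capitals: Zfp36 at chr7:29161970-29161998 (minus strand), Zfp36l1 at chr12:81209154-81209182 (minus), Zfp36l2 at chr17:84584254-84584282 (minus), Rc3h1 at chr1:162900174-162900202 (plus), Rc3h2 at chr2:37228807-37228835 (minus) and the first of Elavl1 at chr8:4285788-4285816 (minus).
Zfp36: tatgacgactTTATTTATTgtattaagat
Zfp36l1: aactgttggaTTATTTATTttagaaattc
Zfp36l2: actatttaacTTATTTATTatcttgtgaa
Rc3h1: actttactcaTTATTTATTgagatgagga
Rc3h2: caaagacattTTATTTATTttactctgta
Elavl1: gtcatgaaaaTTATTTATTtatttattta
The members of the Zfp36 family hold a single nonamer, whereas the Elavl1 site is the start of a repeat. Such repeats also occur in mRNAs that these proteins are known to act on. For comparison 1 site each is given for Tnf, the classical ZFP36 target (chr17:35336634-35336662, minus, 5 nonamers), Csf2, which encodes GM-CSF (chr11:54060831-54060859, minus, 4 nonamers), the chemokine gene Cxcl2 (chr5:91334342-91334370, plus, 4 nonamers) and Il13, a hallmark ILC2 cytokine (chr11:53445243-53445271, minus, 1 nonamer).
Tnf: tttgcacttaTTATTTATTatttatttat
Csf2: ttttaaatatTTATTTATTtatttattta
Cxcl2: gagagttcacTTATTTATTtatctatgta
Il13: cttcttgatcTTATTTATTatggttgtgt
In all, 7 of 22 known targets of ZFP36, Regnase-1 or Roquin (31.8%) and 2 of 5 type 2 cytokine genes (Il13 and Areg) held the nonamer. A match is a description of the letters and not a measured binding site.

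The 7 regulators spanned more than 3 orders of magnitude in level. Between genes, levels were compared as RPKM, the deposited value scaled for transcript length and library depth. In WT ILC2s the order was Zfp36 at 2498 ± 277 RPKM (SD, n = 4), Zfp36l1 at 1853 ± 199, Zfp36l2 at 92.9 ± 16.9, Zc3h12a at 41.1 ± 17.5, Elavl1 at 37.2 ± 6.81, Rc3h1 at 4.96 ± 1.82 and Rc3h2 at 1.30 ± 0.595. Zc3h12a (22.3 to 59.0 RPKM) and Elavl1 (28.6 to 44.99 RPKM) overlapped, and the other neighbours in that order did not. Zfp36 was among the most abundant mRNAs of every library, ranked 11 to 25 of all entries by RPKM, and Zfp36l1 ranked 25 to 177. In WT ILC2p the order was Zfp36 at 4810 ± 695 RPKM (SD, n = 4), Zfp36l1 at 1198 ± 111, Zfp36l2 at 158 ± 36.3, Elavl1 at 21.3 ± 11.3, Zc3h12a at 21.0 ± 7.84, Rc3h1 at 10.9 ± 6.92 and Rc3h2 at 2.51 ± 3.0. There the spreads of Elavl1, Zc3h12a and Rc3h1 overlapped one another, and so did those of Rc3h1 and Rc3h2.

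**Figure D1:**
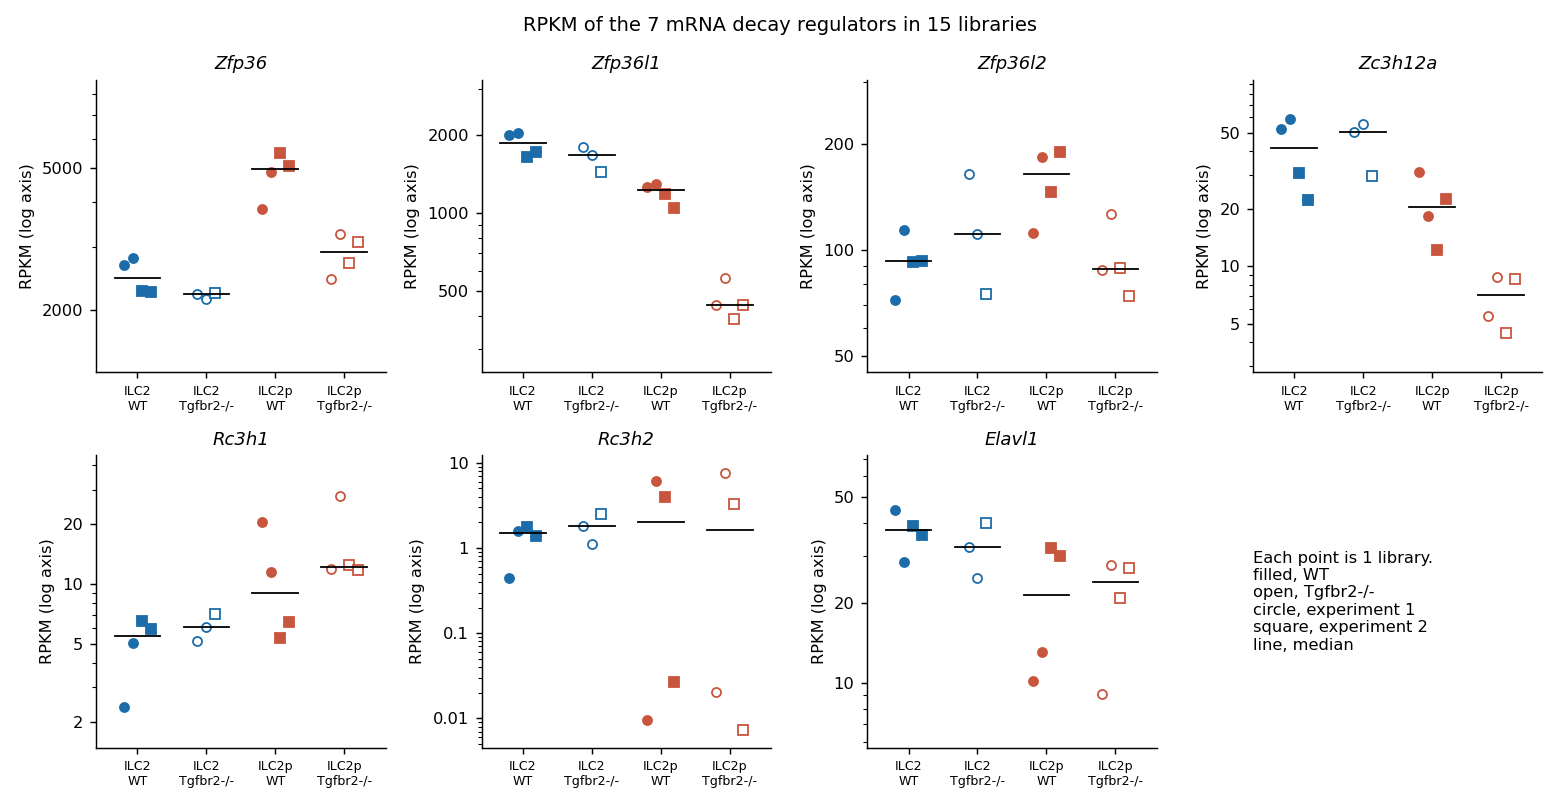
RPKM of each regulator in every library (log axis; 1 point per library, 4 groups, line at the group median). All 4 Tgfbr2-/- ILC2p libraries lie below the WT ILC2p libraries for Zfp36, Zfp36l1 and Zc3h12a, while Rc3h2 splits the ILC2p libraries of both genotypes into 4 at 3.27 to 7.61 RPKM and 4 at 0.00726 to 0.0268 RPKM.

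The ILC2p libraries of the genotypes stood apart in their make-up, as measured with marker lists for each cell type. A gene was called at an adjusted p under 0.1 (edgeR's quasi-likelihood test) and a change over 1.5-fold. Summed over 11 ILC2 markers, the WT ILC2p libraries had 14070, 10250, 11520 and 9632 CPM and the Tgfbr2-/- ILC2p libraries 4856, 5090, 4331 and 6188 CPM, and 4 of the 11 were called lower. Their most abundant gene was Gata3, which encodes the lineage transcription factor of ILC2s, in all 4 WT libraries and in 1 Tgfbr2-/- library, and Id2 in the other 3; no ILC2 marker was at 0 in any library. For 8 neutrophil markers, of which 7 were called higher, the sums were 770, 1510, 897 and 1438 CPM (WT) against 87700, 75130, 70070 and 77830 CPM (Tgfbr2-/-). None of the 8 was at 0, and the most abundant was Mpo in each WT library and S100a8, which encodes an abundant neutrophil calcium-binding protein, at 22800 to 29030 CPM in each Tgfbr2-/- library. The sort gate excluded lineage-positive cells. The sum of 6 macrophage and monocyte markers was 54.95 to 115 CPM in WT and 11800 to 13310 CPM in Tgfbr2-/- ILC2p (3 of 6 called higher, Lyz2 the most abundant in each Tgfbr2-/- library, at most 1 of 6 at 0). That of 5 mast cell and basophil markers was 109 to 292 CPM (Cpa3 the most abundant) against 1188 to 1437 CPM (Prss34), with 3 called higher and at most 1 of 5 at 0. The T cell sum was 0.0876 to 69.1 CPM over the 8 libraries. The NK cell and ILC1 sum was 0 to 36.7 CPM in WT and 33.8 to 388 CPM in Tgfbr2-/- ILC2p with 1 gene called higher, and the sums were at most 114 CPM for ILC3, 113 CPM for erythroid, 55.9 CPM for epithelial and 1.17 CPM for stromal cells, with 2 of 5, 1 of 5, 1 of 6 and 0 of 3 genes tested and none of those called. In bulk libraries fewer cells of a type and less RNA per cell cannot be told apart.

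Zfp36l1 fell in Tgfbr2-/- ILC2p. Its level was 1261, 1296, 1188 and 1045 RPKM in the 4 WT libraries and 440.5, 563.6, 390.2 and 442.5 RPKM in the 4 Tgfbr2-/- libraries. The groups did not overlap, and the highest Tgfbr2-/- library stood well under the lowest WT library. On the CPM scale the levels were 3839, 3153, 3105 and 2486 against 1417, 1769, 1058 and 1426. The log2 fold change was -1.15 (SE 0.18), or 2.22-fold lower, with an adjusted p of 0.00907 (edgeR's quasi-likelihood test, Benjamini-Hochberg adjustment). The change was -1.17 within experiment 1 and -1.16 within experiment 2. Among the 9242 entries tested 80 (0.866%) were called lower and 241 (2.61%) higher. Of the 7 regulators, Zfp36l1 was called lower and 0 were called higher. The call was kept without each of the 8 libraries in turn, with adjusted p-values of 0.0184 to 0.0389. It was lost in experiment 1 alone (adjusted p = 0.320) and in experiment 2 alone (adjusted p = 0.273), with 4 libraries each. Relative to the summed ILC2 markers of the same library, Zfp36l1 did not separate the genotypes (0.258 to 0.308 in WT and 0.230 to 0.348 in Tgfbr2-/- ILC2p). That sum was itself lower in every Tgfbr2-/- ILC2p library than in any WT one.

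Zfp36 (tristetraprolin), the founding member of the family, was lower as well but was not called. The 4 WT ILC2p libraries had 6920, 7005, 8481 and 7095 CPM and the Tgfbr2-/- libraries 4656, 6062, 4339 and 5920 CPM. Every Tgfbr2-/- library was below every WT library in CPM, and above every WT library relative to the summed ILC2 markers (0.957 to 1.19 against 0.492 to 0.737). The lower marker sum of the Tgfbr2-/- libraries raises every entry on that ratio, so standing above WT on it cannot be called particular to Zfp36. Its log2 fold change in CPM was -0.49 (SE 0.15; edgeR quasi-likelihood adjusted p = 0.186), and it passed the threshold with upper-quartile scaling (-0.82, adjusted p = 0.0140), library-size scaling (-0.72, 0.0217), limma on RPKM (-0.74, 0.00825) and a minimum of 10 counts in every library (-0.61, 0.0694). These scalings also moved the median of all entries, which was -0.10 under TMM, by -0.31, -0.22 and -0.31 for the first 3. Relative to the median of all entries, Zfp36 was lower by 0.33 to 0.42 and Zfp36l1 lower by 0.98 to 1.06 across TMM, both other scalings, DESeq2 and limma. The share of calls that were higher was 75.1% under TMM, 63.0% with upper-quartile scaling, 66.2% with library-size scaling and 60.6% in limma, and DESeq2 called 676 higher and 553 lower.

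Zfp36l2, the third family member, had overlapping groups in ILC2p: WT libraries had 403.5, 529.3, 450.9 and 534.9 CPM, Tgfbr2-/- libraries 335.0, 470.9, 286.1 and 282.4 CPM (log2 fold change -0.50, SE 0.29). Relative to the summed ILC2 markers its log2 difference was 0.64 (1.05 in experiment 1 and 0.24 in experiment 2). The groups overlapped on that ratio too (0.0287 to 0.0555 in WT and 0.0456 to 0.0925 in Tgfbr2-/- ILC2p). For Regnase-1 mRNA (Zc3h12a) the values were 88.5, 42.0, 30.0 and 50.3 CPM for WT ILC2p, against 16.7, 25.9, 11.4 and 26.1 CPM for Tgfbr2-/- ILC2p. These groups did not overlap either, yet the log2 fold change of -1.36 had an SE of 1.05 and was not called. Relative to the summed ILC2 markers the Zc3h12a groups overlapped (log2 difference -0.21). Zfp36, Zfp36l1 and Zc3h12a, 3 of the 7, were thus below WT in CPM in every Tgfbr2-/- library of both experiments, a pattern held by 6.26% of all entries tested. None was above in every library, which 7.8% of entries were.

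Roquin-1 mRNA went the other way in value, with no call, and HuR mRNA was not called either. Rc3h1 had 230, 103.5, 51.5 and 56.2 CPM (WT ILC2p) against 142.0, 323, 125.0 and 140.5 CPM (Tgfbr2-/- ILC2p; log2 fold change 0.89, SE 0.53). Elavl1 stood at 62.7, 64.2, 169.7 and 144.2 CPM against 59.3, 176.2, 114.5 and 177.1 CPM (0.39, SE 0.58). Its direction was not stable, at -0.10 in experiment 2 alone and -0.082 without Tgfbr2-/- experiment 1 replicate 2. Its mean RPKM was 21.3 in WT and 21.2 in Tgfbr2-/- ILC2p. Both genes overlapped between genotypes. Roquin-2 mRNA (Rc3h2) had 1, 778, 1119 and 8 counts in the WT and 2, 687, 661 and 2 counts in the Tgfbr2-/- libraries. It was thus close to absent in 4 libraries, 2 of each genotype, and plain in the other 4, so its fitted log2 fold change (0.24, SE 2.35) carries no direction. Such gaps touched many entries of the ILC2p libraries. Among entries whose median elsewhere reached 50 CPM, an ILC2p library had 1.54% to 14.0% under 1 CPM and an ILC2 library at most 0.0273%. The part of these gaps in the Rc3h2, Zc3h12a and Elavl1 values was not tested.

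**Figure D2:**
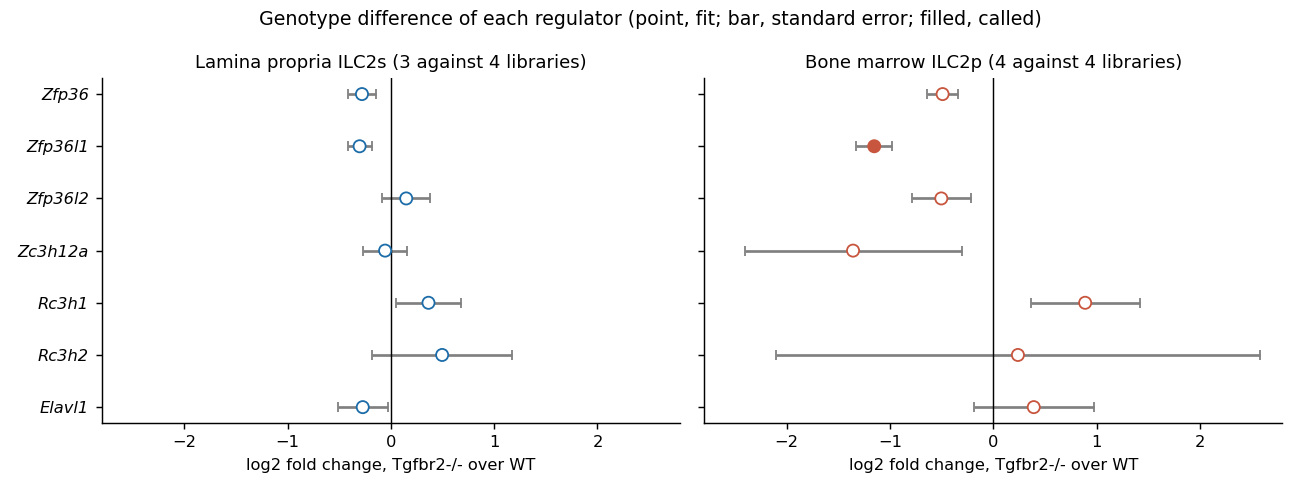
Log2 fold change of each regulator, Tgfbr2-/- over WT, in LP ILC2s and BM ILC2p (point, edgeR fit; bar, standard error; filled point, called). Zfp36l1 in ILC2p, at -1.15, is the one filled point of the 14.

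In LP ILC2s none of the regulators was called. edgeR's quasi-likelihood test called 0 of 11981 entries lower (0.0%) and 0 higher (0.0%), with 557 at an unadjusted p under 0.05, whereas DESeq2 called 338 entries and limma 0. None of the 7 regulators was among those of DESeq2. The 4 WT libraries had 6662, 6205, 4435 and 4568 CPM of Zfp36l1 and the 3 Tgfbr2-/- libraries 4973, 5004 and 3896 CPM. Within each experiment the Tgfbr2-/- libraries were below the WT libraries, but experiment 1 of the Tgfbr2-/- group was above experiment 2 of the WT group. The log2 fold change was -0.30 (SE 0.12; edgeR quasi-likelihood adjusted p = 0.898). Zfp36l1 was the 1 regulator below WT within both experiments, as were 5.82% of all entries, and 0 regulators were above, as were 6.79%.

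The other 6 regulators had overlapping groups in ILC2s. Zfp36 had 5256, 5024, 3625 and 3533 CPM (WT) against 3632, 3795 and 3566 CPM (Tgfbr2-/-; log2 fold change -0.28, SE 0.14). Its log2 fold change was -0.43 within experiment 1 and 0.0078 within experiment 2. The remaining log2 fold changes were 0.15 (SE 0.23) for Zfp36l2, -0.06 (SE 0.21) for Zc3h12a, 0.36 (SE 0.31) for Rc3h1, 0.50 (SE 0.68) for Rc3h2 and -0.27 (SE 0.24) for Elavl1. With 1 library left out, that of Rc3h1 was 0.14 to 0.62 and that of Rc3h2 0.21 to 1.085. Regnase-1 mRNA was lower in every ILC2 library of experiment 2 than in any of experiment 1, with both genotypes. WT libraries had 164 and 168 CPM of Zc3h12a in experiment 1 and 77.5 and 55.5 CPM in experiment 2, Tgfbr2-/- libraries 130 and 156 CPM in experiment 1 and 75.4 CPM in experiment 2, and the difference of experiment 2 from experiment 1 was -1.16 (SE 0.22).

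A single fit over all 15 libraries compared the genotype effect of ILC2p with that of ILC2s. For Zfp36l1 the log2 fold change was lower in ILC2p than in ILC2s by a difference of -0.84 (SE 0.19; edgeR quasi-likelihood adjusted p = 0.0702). It was 1 of 60 entries called lower among 12806 (0.469%), and no other regulator was called. The call was lost when any of the 7 ILC2 libraries or 2 of the 8 ILC2p libraries (Tgfbr2-/- experiment 1 replicate 1 and WT experiment 2 replicate 1) was left out, with adjusted p-values of 0.107 to 0.334, in DESeq2 (0.436) and without the experiment as a covariate (0.137). The difference kept its sign in all of these. The median of all entries in this contrast was itself -0.31, so that relative to it the Zfp36l1 difference was -0.53. Relative to the summed ILC2 markers, the genotype log2 difference of Zfp36l1 was -0.0081 in ILC2p and -0.13 in ILC2s, and thus not lower in ILC2p. The marker sum itself was lower in Tgfbr2-/- ILC2p (mean 5116 CPM against 11370 CPM in WT), with 4 of its 11 genes called lower. It includes Il1rl1, the gene of the IL-33 receptor ST2 (median 268.9 CPM against 1044 CPM in WT). The ratio therefore does not set the difference in CPM aside. The ILC2p were sorted from chimeras weeks after transfer and the ILC2s from treated mice directly, so cell type, model and experiment cannot be told apart.

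Within the Zfp36 family, the balance of members differed more between the cell types than the sum did. In WT ILC2s the family summed to 4445 ± 476 RPKM (SD, n = 4), of which Zfp36l1 made up 41.7% ± 0.671. In WT ILC2p it summed to 6165 ± 677 RPKM (SD, n = 4), of which Zfp36l1 made up 19.7% ± 3.42. The ratio of Zfp36l1 to Zfp36 RPKM within a library, which no scaling between libraries can move, was 0.742 ± 0.019 in WT and 0.745 ± 0.087 in Tgfbr2-/- ILC2s. In ILC2p it was 0.328, 0.266, 0.217 and 0.207 in WT and 0.180, 0.173, 0.144 and 0.143 in Tgfbr2-/- libraries. Every Tgfbr2-/- ILC2p library had a lower ratio than every WT one, and the ratio was also lower in experiment 2 than in experiment 1 of either genotype. The summed family was 3434 ± 440 RPKM (SD, n = 4) in Tgfbr2-/- ILC2p, below each WT library, and 3963 ± 216 RPKM (SD, n = 3) in Tgfbr2-/- ILC2s.

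**Figure D3:**
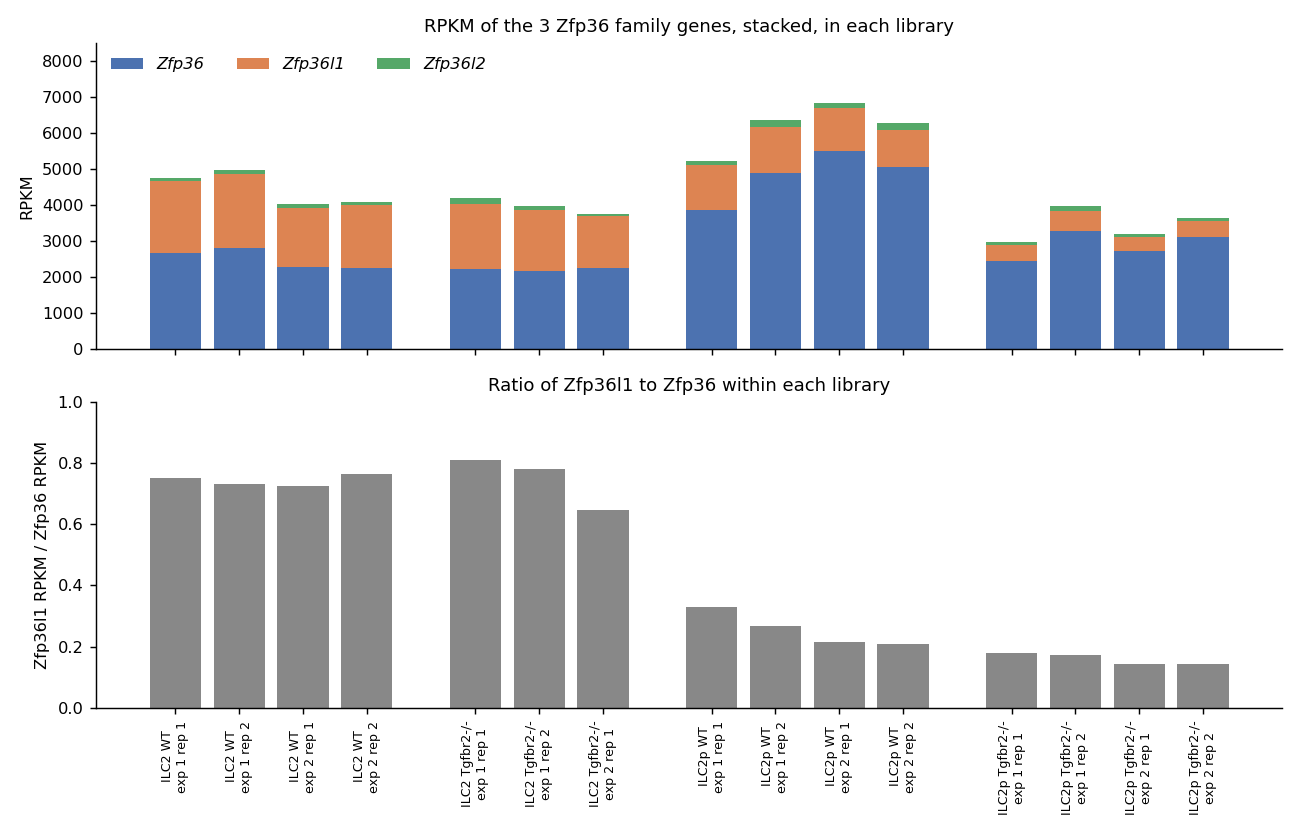
RPKM of Zfp36, Zfp36l1 and Zfp36l2 stacked in each library (top) and the ratio of Zfp36l1 to Zfp36 RPKM (bottom), by cell type, genotype, experiment (exp) and replicate (rep). The ratio lies between 0.646 and 0.810 in the 7 ILC2 libraries and between 0.143 and 0.328 in the 8 ILC2p libraries.

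Between the cell types, WT ILC2s had less Zfp36 (log2 difference -0.88, 1.84-fold) and less Zfp36l2 (-0.69) than WT ILC2p, and more Zfp36l1 (0.68, 1.598-fold). For each of these 3 genes the 4 libraries of one cell type lay on one side of the 4 of the other, as 6.43% of 10468 entries did with ILC2s above and 3.98% with ILC2s below. On RPKM the Zfp36l2 libraries overlapped (72.2 to 113.7 in ILC2s and 112.0 to 189.9 in ILC2p), and 2 in place of 3 genes were separated with library-size scaling and on log2(RPKM + 1). Between the Tgfbr2-/- libraries of both cell types the difference was -0.026 for Zfp36l2 and 1.49 for Zfp36l1. The values for Zc3h12a (1.01), Elavl1 (0.89), Rc3h1 (-1.19) and Rc3h2 (-0.86) came from overlapping libraries. These are descriptions with no test.

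Library by library, Zfp36l1 divided by the summed ILC2 markers was 0.273, 0.308, 0.270 and 0.258 in WT ILC2p and 0.292, 0.348, 0.244 and 0.230 in Tgfbr2-/- ILC2p. On this ratio, which was added after the values were seen, the genotypes overlapped (log2 difference 0.14 in experiment 1 and -0.15 in experiment 2). For Zfp36 the ratio was 0.492 to 0.737 in WT and 0.957 to 1.19 in Tgfbr2-/- ILC2p, and thus higher in every Tgfbr2-/- library. The marker sum itself was lower in Tgfbr2-/- ILC2p (mean 5116 CPM against 11370 CPM in WT), so an entry of unchanged CPM is higher on this ratio. That lower sum enters the reversal of Zfp36 from its direction in CPM, and whether anything else enters was not tested. The ratio was also higher in every Tgfbr2-/- library for Rc3h1, at 0.0227 to 0.0635 against 0.00447 to 0.0164. The share of all entries separated on this ratio is not given here, so neither separation can be called particular to its gene. The part of neutrophil and monocyte RNA in the levels of the 7 regulators, and in those of the listed genes that follow, was not tested. In ILC2s the ILC2 marker sums were 12880 to 13480 CPM in WT and 10230 to 12540 CPM in Tgfbr2-/- libraries and the neutrophil sums at most 4.06 CPM. The Tgfbr2-/- ILC2 library of experiment 2 stood apart in other lists. Its epithelial sum was 917 CPM (Krt8 the most abundant) against 7.36 to 328 CPM in WT ILC2s, and its NK cell and ILC1 sum 1012 CPM (Gzma 815.6 CPM) against 219.7 to 432 CPM in WT and 307 and 544 CPM in the other Tgfbr2-/- ILC2 libraries. Without it the Zfp36l1 fold change in ILC2s was -0.34. WT ILC2 experiment 2 replicate 2 also stood apart, with sums of 165.9 CPM for macrophages and monocytes and 137.6 CPM for stromal cells. The other ILC2 libraries had at most 15.1 and 20.5 CPM. Without that WT library the Zfp36l1 log2 fold change in ILC2s was -0.28.

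**Figure D4:**
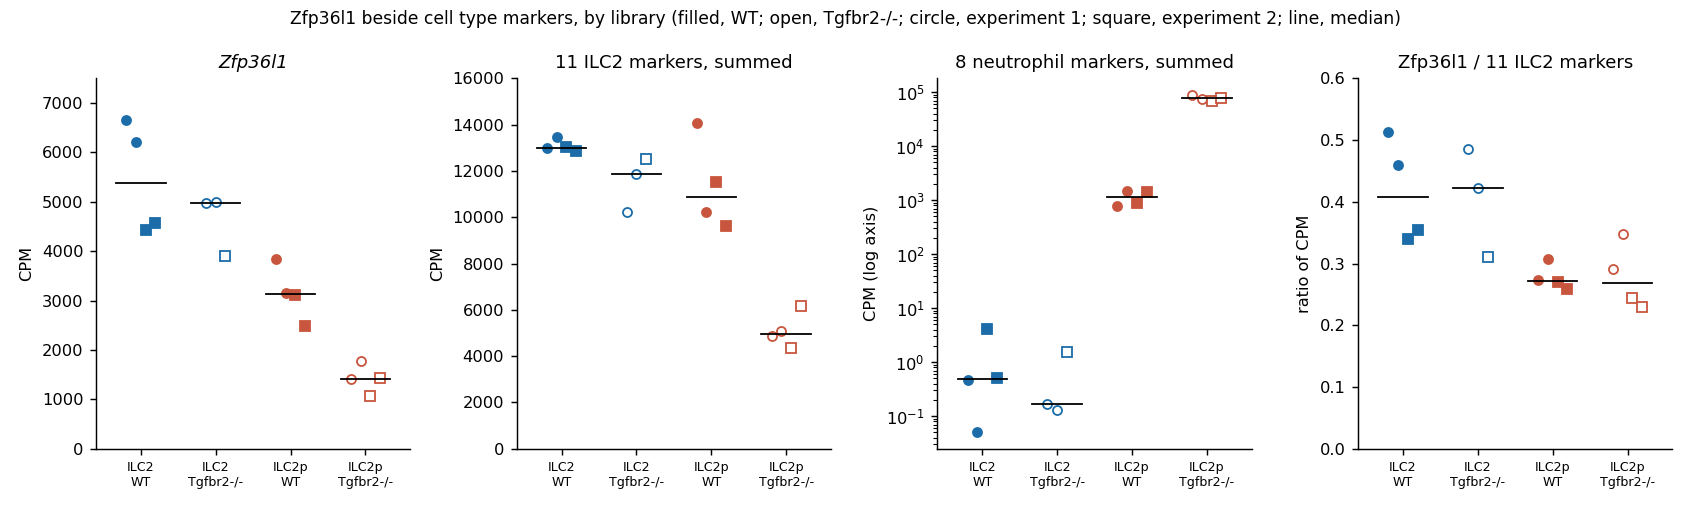
Zfp36l1, the summed 11 ILC2 markers, the summed 8 neutrophil markers (log axis) and the ratio of Zfp36l1 to the ILC2 markers, in CPM scaled within each cell type (1 point per library, line at the median). In ILC2p Zfp36l1 and the ILC2 markers are lower in each Tgfbr2-/- library, the neutrophil sum is at most 1510 CPM in WT and at least 70070 CPM in Tgfbr2-/- libraries, and the ratio overlaps between genotypes.

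The machinery that the regulators recruit was given by fixed lists, of which 2 genes each were named for the highest RPKM. Of the 15 CCR4-NOT subunits and adaptors, 0 were called in ILC2p by edgeR, where 0.866% of all entries were called lower and 2.61% higher (median log2 fold change -0.02, against -0.10 for all entries). Their most abundant genes were the adaptors Btg1, with 1681 to 3994 CPM in WT and 1033 to 1822 CPM in Tgfbr2-/- ILC2p, and Btg2, with 603 to 831 against 606 to 865 CPM. Neither gene separated the genotypes in full. Of 29 genes of decapping, the exosome and exonucleases, 0 were called (median -0.38), and Lsm4 and Lsm3, subunits of the ring that binds deadenylated mRNA ends, stood at -0.14 (SE 0.41) and 0.66 (SE 0.83). Of 17 other RNA-binding regulators 11 were tested and 0 called (median -0.23), with Ybx1 at 0.48 (SE 0.29) and Arid5a, whose product protects Il6 mRNA, at 1.31 (SE 1.55). In ILC2s 0 genes of these lists were called, with medians of -0.03, -0.07 and -0.09 against -0.01 for all entries.

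The list of 10 genes of the p38-MK2 and MALT1 routes, which phosphorylate ZFP36 proteins or cleave Regnase-1 and Roquin, had 1 called lower (against 0.866% of all entries), Dusp1, the phosphatase that switches off p38. Dusp1 had 20440, 10090, 13720 and 9192 CPM in the WT and 5375, 6225, 3987 and 6659 CPM in the Tgfbr2-/- ILC2p libraries and fell by 1.25 on the log2 scale (SE 0.26; edgeR quasi-likelihood adjusted p = 0.0413). The call was lost without any of 4 libraries (Tgfbr2-/- experiment 1 replicates 1 and 2, Tgfbr2-/- experiment 2 replicate 1 and WT experiment 2 replicate 1), with adjusted p-values of 0.117 to 0.138, and in experiment 1 alone (0.355), experiment 2 alone (0.278) and under the replicate block (0.117). The kinase gene Map2k3 had 1.32 to 134 against 89.6 to 401 CPM and was not called. The list's median was 0.01. Immediate early genes, like Zfp36, respond to stimuli within minutes. Of 9 such genes 8 were tested in ILC2p, 4 were called lower (against 0.866% of all entries) and 0 higher (2.61%), and the median was -0.99. Those called were Egr1 (-1.96, SE 0.34), Junb (-1.15, SE 0.22), Jun (-1.13, SE 0.16) and Fos (-0.85, SE 0.15), with edgeR quasi-likelihood adjusted p-values of 0.0203, 0.0269, 0.00485 and 0.0194. Every Tgfbr2-/- library was below every WT library for each of the 4. Of all entries tested, 6.26% were below WT in every Tgfbr2-/- library within both experiments. With 1 library left out only the Junb call was lost (Tgfbr2-/- experiment 1 replicate 1, edgeR quasi-likelihood adjusted p = 0.106). All 4 calls were lost in experiment 1 alone and in experiment 2 alone, and that of Fos also in DESeq2 (adjusted p = 0.126). Fosb, Ier2 and Nr4a1 were not called (-0.82, -0.79 and -1.26), nor was Atf3, whose value went the other way (2.54, SE 1.33; 0.175 to 40.8 CPM in WT and 50.4 to 179 CPM in Tgfbr2-/- ILC2p). In ILC2s 0 of 9 were called, the values of all 9 were below 0 and the median was -0.28.

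Among mRNAs that the regulators are known to act on, 11 of 22 could be tested in ILC2p, 1 was called higher (against 2.61% of all entries) and 0 lower (0.866%). Cxcl2, a neutrophil-attracting chemokine gene with 4 nonamers, had 37.2, 8.38, 2.47 and 4.44 CPM in the WT and 140.8, 133.5, 294.0 and 187.8 CPM in the Tgfbr2-/- libraries (log2 fold change 4.35, SE 1.10; edgeR quasi-likelihood adjusted p = 0.0961). The call was lost without any 1 of 7 of the 8 libraries, all but WT experiment 1 replicate 1, with adjusted p-values of 0.112 to 0.308. Cxcl2 rose together with the neutrophil markers, and their part in this was not tested. The targets with the highest median RPKM over all 15 libraries were Nfkbiz and Nfkbid, which encode nuclear proteins that modulate NF-κB. Neither Nfkbiz (1254 to 1466 against 542 to 919 CPM) nor Nfkbid (0.438 to 213 against 2.51 to 96.4 CPM) was called. The 11 that passed the filter are not the whole list, and some were high mainly in the Tgfbr2-/- libraries (Tnf, at 0.0567 to 13.7 CPM in WT and 0.421 to 135.8 CPM in Tgfbr2-/- ILC2p, was not called), so no median is given for them. The type 2 cytokines were low in ILC2p, with 3 of 5 tested and 0 called. Il4 had 31.6 to 74.7 CPM in WT libraries and 0 to 21.3 CPM in Tgfbr2-/- libraries, and Areg, which encodes amphiregulin, at 20.3 to 43.5 against 0 to 11.2 CPM. In ILC2s 0 of 18 targets and 0 of 4 type 2 cytokines tested were called, and Il4 had 211 to 260 CPM in WT and 217 to 260 CPM in Tgfbr2-/- libraries. Csf2, with 4 nonamers, had 726 to 989 CPM in WT and 318 to 615 CPM in Tgfbr2-/- ILC2s and was not called. Il5, which encodes the eosinophil growth factor, and Ptgs2, which encodes cyclooxygenase-2, were picked out after their values were seen. Il5 had 103.6 to 228 CPM in WT and 43.2 to 69.2 CPM in Tgfbr2-/- ILC2s (log2 fold change -1.23, SE 0.27), and Ptgs2 115.6 to 211 against 30.4 to 78.1 CPM (-1.58, SE 0.36). Neither pair of groups overlapped and neither gene was called (edgeR quasi-likelihood adjusted p = 0.877 for both). Of all entries tested in ILC2s, 5.82% were below WT in every Tgfbr2-/- library within both experiments and 6.79% above. Among the targets, Ctla4 (3.94 to 16.5 CPM in WT, 17.8 to 39.8 CPM in Tgfbr2-/- ILC2s) went the other way without overlap. So did Tnfrsf4 (0.102 to 3.20 against 5.04 to 8.96 CPM), and neither was called.

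**Figure D5:**
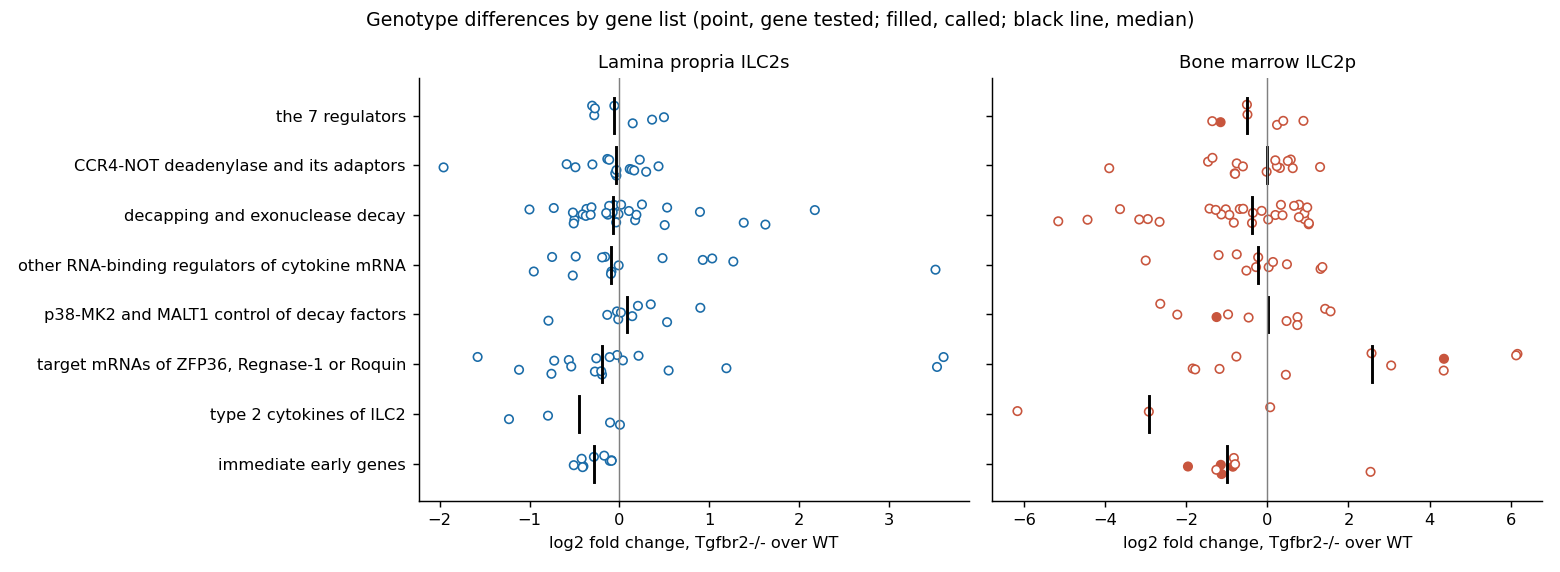
Log2 fold change by genotype of each tested gene in the 7 regulators and the 7 other lists (point, gene; filled, called; black line, list median), with separate horizontal scales for LP ILC2s and BM ILC2p. In ILC2p the immediate early genes hold 4 filled points below 0 and the targets 1 above 0, and in ILC2s no point is filled.

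Tested genes with a nonamer in the 3′ UTR were set beside all entries. In ILC2p the 575 tested genes that held it had a median log2 fold change of -0.20 against -0.10 for all entries, with 10 called higher (1.74%, against 2.61% of all entries) and 9 called lower (1.57%, against 0.866% of all entries). These shares are a description with no test. In ILC2s the 774 such genes had a median of -0.02 against -0.01.

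The genes most like each regulator were ranked by Pearson's r of log2 CPM over the 15 libraries, after the mean of each cell type and experiment was subtracted, among 7554 entries. Zfp36 was most like Gprasp2 (r = 0.913), Rgs1 (0.911), Zfp36l1 (0.891), Zbtb44 (0.889) and Lztfl1 (0.883). Zc3h12a was most like Slc35a2 (r = 0.944), the immediate early gene Ier2 (0.934), Arfgap2 (0.929), the exosome gene Exosc2 (0.924) and Parp6 (0.919), and its r was 0.846 with Zfp36l1 and 0.738 with Zfp36. Rc3h1 had r = -0.482 with Zfp36 and -0.532 with Zfp36l1. Elavl1 had its highest values with Creb3 (r = 0.895), Gdpd5 (0.887), Neil1 (0.885), Slc7a5 (0.876) and Fads1 (0.870) and near none with Zfp36l1 (-0.06). Zfp36l1 was most like Tnfaip3, which encodes the NF-κB inhibitor A20 (r = 0.974, looked up after the values were seen). The libraries share the genotype split and the marker shifts of ILC2p, so these values describe likeness across libraries and carry no p.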

How the data were processed

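The authors mapped reads to mm9 with TopHat (up to 15 hits per read; GEO's processing notes name Bowtie2, with no version) and computed, with rpkmforgenes on RefSeq transcripts, the deposited read counts and RPKM per gene. Strand was not given in the sources used here. The RPKM values were used to compare genes and the counts for all tests. The 24690 entries cover 24089 symbols and 205 entries join genes. edgeR 4.0.16 (R 4.3.3) was run with TMM, filterByExpr, a quasi-likelihood fit with experiment as covariate, and calls at a Benjamini-Hochberg adjusted p under 0.1 and a fold over 1.5. The tool and both thresholds are those of the study's methods, and the other settings were chosen here. Cell types were fitted apart, and together for the difference. Other tools tried were limma 3.58.1 (log2 of RPKM + 1) and DESeq2 1.42.0, beside other scalings, filters, thresholds, blocks and left-out libraries. The regulators, lists and tests were chosen with earlier results of these data known. Named genes were the 7 regulators, the called genes of each list (up to 4) and its 2 most abundant, and the 5 entries most like Zfp36, Zc3h12a and Elavl1. Details of Rc3h2, Il13, Tnf, Csf2, Il5, Ptgs2, Ctla4, Tnfrsf4 and the immediate early genes that were not called, Zfp36l1's most alike gene and the ratio to ILC2 markers were added after the values were seen. On simulated ILC2p data, 0% of genes changed by 1 on the log2 scale and 1.06% of those changed by 2 were called among 8939 genes, and on simulated ILC2 data 5.05% and 38.1% among 11530. False calls numbered 0 for ILC2p and 3 for ILC2s. Every simulated gene was given the trend of spread at its level in place of its own spread. The shares therefore do not hold for genes of smaller spread. The lists of cell type markers were ILC2, T cell, macrophage and monocyte, neutrophil, mast cell and basophil, epithelial, erythroid, NK cell and ILC1, ILC3, and stromal. One further marker list is not reported here.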

Additional observations from a re-analysis of the deposited data

Results flagged for a closer look

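Of the 21 groups of 4 libraries (7 regulators in 3 groups), 3 had 1 library whose gap to the next passed Dixon's 95% critical value for its share of the group's range, which chance passes in about 1 group of 20. Zfp36 stood at 8481 CPM in WT ILC2p experiment 2 replicate 1, above 6920 to 7095 CPM in the other 3. Zfp36l2 stood at 408.3 CPM in WT ILC2s experiment 1 replicate 2, above 284.6 to 296.5 CPM. Rc3h1 stood at 323.2 CPM in Tgfbr2-/- ILC2p experiment 1 replicate 2, above 125.0 to 142.0 CPM. The genotype difference of Zfp36l1 was itself different between the cell types, at -0.84 on the log2 scale for ILC2p less ILC2s (edgeR quasi-likelihood adjusted p = 0.0702), and 9 of 15 left-out libraries end that call. Over the summed ILC2 markers it was -0.0081 in ILC2p and -0.13 in ILC2s, and thus not lower in ILC2p. That sum was itself lower in Tgfbr2-/- ILC2p, so the ratio does not set the difference in CPM aside.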

How the results depend on the processing

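In ILC2p, 321 entries were called, against 1229 in DESeq2, 199 with at least 10 counts in every library, 38 in experiment 1 alone and 77 in experiment 2 alone, and 179 to 319 with 1 library left out (179 and 185 without WT experiment 2 replicate 1 or 2, 185 without WT experiment 1 replicate 2 and 212 without Tgfbr2-/- experiment 1 replicate 1). In ILC2s 0 were called, against 338 in DESeq2 and 3 without a filter. For the difference between cell types 127 were called, against 203 with upper-quartile and 196 with library-size scaling, 1518 in DESeq2, 382 in limma, 259 without a filter and 68 at an adjusted p under 0.05, and 14 (without the ILC2 Tgfbr2-/- library of experiment 2) to 407 (without ILC2p Tgfbr2-/- experiment 2 replicate 1) with 1 library left out. It also moved by over 1.5 times without ILC2 WT experiment 1 replicate 1 (71) or 2 (54) or experiment 2 replicate 2 (66), ILC2 Tgfbr2-/- experiment 1 replicate 1 (54) or 2 (46), ILC2p WT experiment 1 replicate 1 (309) and ILC2p Tgfbr2-/- experiment 2 replicate 2 (191). Regulators whose Tgfbr2-/- ILC2 libraries all lay on 1 side of the WT libraries of their experiment, in either direction, numbered 1. They numbered 2 with library-size or upper-quartile scaling and 3 on RPKM, where Zfp36 and Zfp36l1 lay below WT and Rc3h1 above. The share of all entries under these other settings is not given here. A replicate block gave 175 calls in ILC2p, with Zfp36l1 at -1.16 and still called and Dusp1 and Cxcl2 not. Deviations of libraries with the same number had correlations of -0.06 to -0.01, so no pairing by number was seen. In groups of 2 libraries the deviations mirror each other, and ILC2 experiment 2 was not checked, so pairing is not excluded. The Zfp36l1 fold change in ILC2p was -1.47 to -1.04 over 18 alternatives and -0.0081 over the summed ILC2 markers.

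Across scalings, tools, filters and left-out libraries, signs turned only in values that were not called. In ILC2s these were Zfp36 (experiment 2 alone, 0.0078), Zfp36l2 (experiment 2 alone, -0.28; 1 library left out, -0.049 to 0.45), Elavl1 (0.12; -0.51 to 0.0097) and Zc3h12a (upper quartile 0.041, library size 0.024, limma 0.028, at least 10 counts 0.00029, no covariate 0.0502, experiment 2 alone 0.19; 1 library left out, -0.19 to 0.047). In ILC2p these were Rc3h2 (upper quartile -0.081, experiment 2 alone -0.22; 1 library left out, -1.70 to 2.11) and Elavl1 (experiment 2 alone -0.10; -0.082 to 0.63). For the difference it was Rc3h2 (1 library left out, -2.17 to 1.56). Over the summed ILC2 markers, which was added after the values were seen, Zfp36 (0.65) and Zfp36l2 (0.64) in ILC2p and Zc3h12a in ILC2s (0.145) turned. Division by the marker sums, which were lower in Tgfbr2-/- libraries, raises every entry there. Any other part in these turns was not tested. The mean sums were 11370 CPM (WT) and 5116 CPM (Tgfbr2-/-) in ILC2p, and 13090 and 11540 CPM in ILC2s. The cause of the other turns was not tested. Rc3h2 had as few as 1 count in a library. With at least 10 counts in every library no type 2 cytokine gene was left in ILC2p.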
